A study of Macaca fascicularis with 36 samples.

Results

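Para09 at 50 mg/kg was compared with anti-gD at 200 mg/kg in frontal cortex tissue from cynomolgus monkeys. Members were chosen by their treatment labels: 24 of the 36 libraries of the series, from 8 of its 12 animals. Animals 4501 to 4504 received the anti-hTREM2 agonist antibody Para09, and animals 1501 to 1504 received anti-gD, the isotype control. All 8 animals were injected intrathecally and their brains were sampled 2 days later. The control antibody was given at 4 times the dose of Para09, per the labels, so antibody and dose differ together between these groups. The sources used here give neither age nor sex for the animals, and no untreated group was analysed here. They do not say how a dose per kg applies to an intrathecal injection. Each animal gave 3 libraries, lettered A, B and C in the labels without a statement of what the letters stand for.

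TREM2 is a receptor on microglia, the resident macrophages of the brain. It binds lipids and lipoproteins, signals through the adaptor TYROBP and the kinase SYK, and is known for its part in phagocytosis, in microglial survival and in the microglial response to damaged tissue. An agonist antibody is meant to switch on that signalling without the natural ligand. In bulk cortex, microglial transcripts are diluted by those of neurons and other glia, and fewer cells of a type cannot be told apart from less RNA per cell. The tables hold Ensembl-type identifiers without gene names, so genes appear here by identifier. Neither the cortex label nor the presence of microglial transcripts could therefore be checked against marker genes.

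Libraries held 16.5 to 25.1 M counts (M for mega) with anti-gD and 15.1 to 37.0 M at 50 mg/kg, and sums per animal ran from 54.7 to 80.3 M. The sample numbers in the titles form 2 separate runs, called here the first and the second series. They were handled as a batch only through fits within a series and alternative fits with terms for the series. The main edgeR fit on animal sums held no term for the series. The first series held the letter B library of all 8 animals plus letters A and C of control animal 1504. The second series held the remaining 14 libraries, so every animal at 50 mg/kg was split between the series in the same way and control animal 1504 was not split at all. Across 14643 genes that averaged 1 CPM or more (counts scaled to a common library size), the median SD between animals was 0.27 on the log2 scale with anti-gD and 0.19 at 50 mg/kg. The control value was 0.19 without animal 1504, and the value at 50 mg/kg was 0.16 without animal 4504 (3 animals each).

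The comparison asked which transcripts differ at the lower Para09 dose, and no gene passed the test across all genes. With counts summed over the 3 libraries of an animal, edgeR's quasi-likelihood test called 0 of 17360 genes (0%) at a Benjamini-Hochberg adjusted p under 0.05, and the lowest adjusted p was 0.857. If no gene differed, an unadjusted p under 0.05 would be expected for a share of 0.05 of the genes, both directions together. It was found for 364 genes with higher levels at 50 mg/kg (2.1%) and for 632 with lower levels (3.64%). Most of these differences were small: the median log2 fold change was 0.49 for the higher and -0.46 for the lower genes, and 51 genes in each direction differed by more than 2-fold. The 4 animals of one group lay entirely outside the range of the other for 375 genes in the higher direction (2.16%) and for 319 in the lower (1.84%). These became 272 and 470 of 17343 genes without the letter A library of animal 4504, and 642 and 551 of 17358 without its letter B library. They were 199 and 314 of 17360 when each library of an animal had equal weight. For 4 animals against 4 with no difference, a share of 0.0286 is expected, both directions together. The unadjusted count of 996 depended on which animals were in the fit. It was 566 of 17511 genes without animal 4501, 687 of 17506 without 4502, 561 of 17513 without 4503 and 1490 of 17504 without 4504. Leaving out a control gave 1139 of 17498 without 1501, 1442 of 17509 without 1502, 950 of 17509 without 1503 and 716 of 17516 without 1504. These counts thus fell on both sides of the share of 0.05 expected with no difference.

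**Figure D1:**
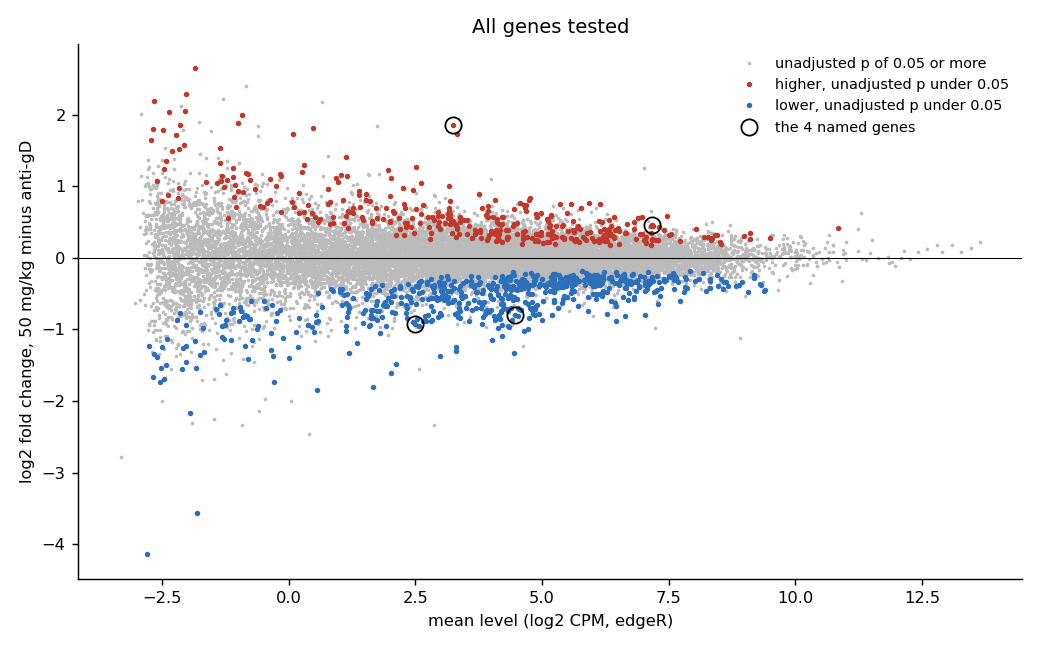
Log2 fold change of each of the 17360 genes tested (vertical axis, 50 mg/kg minus anti-gD) against its mean level in log2 CPM (horizontal axis). Red and blue points are the 364 higher and 632 lower genes at an unadjusted p under 0.05, circles mark the 4 genes described by name, and edgeR called 0 genes after adjustment.

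Transcripts found in every animal of 1 group and in no animal of the other were few and close to 0 counts. Counts were present in all 4 animals at 50 mg/kg and absent from all 4 controls for 12 genes, and the highest of these reached 14 counts over the 4 animals together. In the opposite direction there were 2 such genes, the higher with 10 counts. By contrast, 17938 genes had counts in all 8 animals.

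The precision of the comparison depended on the level of a gene. The 95% interval of the log2 fold change lay within 2-fold in either direction for 13405 of 17360 genes (77.2%) and within 1.5-fold for 49.1%. Among 2212 genes above 100 CPM, 98.2% had an interval within 2-fold and the median standard error (SE) was 0.14 on the log2 scale. Among 2717 genes at or below 1 CPM these values were 21.1% and 0.47. Differences of more than 2-fold thus lay outside the interval for nearly all abundant transcripts, while for most transcripts at or below 1 CPM they did not. The intervals are not adjusted for the number of genes.

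The named genes are the 2 higher and the 2 lower with the smallest p in this comparison, out of the genes that averaged 1 CPM or more and had the same direction in both series. They were picked for a small p on these animals, so their fold changes are biased toward large values and their p-values support nothing further. What the genes encode is not known here.

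The largest of these differences belonged to ENSMFAG00000039227, a gene with an exonic width of 1610 bases. Summed per animal it stood at 2.46, 4.66, 5.48 and 6.06 CPM in control animals 1501 to 1504 and at 14.1, 17.5, 20.6 and 15.3 CPM in animals 4501 to 4504. All 4 animals at 50 mg/kg lay above all 4 controls. The means were 16.9 CPM ± 2.87 and 4.67 CPM ± 1.58 (SD, n = 4 animals each), and edgeR gave a log2 fold change of 1.85 (SE 0.35, adjusted p = 0.857).

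The libraries of ENSMFAG00000039227 did not share that difference evenly. In letter C, animals 4501 to 4504 stood at 32.6, 28.2, 54.8 and 41.8 CPM, and control animals 1501 to 1504 at 4.75, 7.63, 9.20 and 0.439 CPM. The 4 letter C libraries at 50 mg/kg exceeded every control library, the highest of which was letter A of animal 1504 at 15.4 CPM. The other 8 libraries at 50 mg/kg ranged from 0.320 to 14.2 CPM, with the lowest values in letter B of animals 4504 and 4501. They thus lay within or below the range of the control libraries. In animal 4503 the letter A library held 1.43 CPM and the letter C library 54.8 CPM, a 38.3-fold difference within 1 animal.

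Fitted by letter, the log2 fold change of ENSMFAG00000039227 was 2.81 (SE 0.66) in letter C, 0.96 (SE 0.86) in letter B and 0.16 (SE 0.70) in letter A. The edgeR adjusted p was 0.551, 0.997 and 0.988, respectively. The letter A and C fits set libraries 1504A and 1504C, of the first series, among libraries of the second, and 1504A was the highest control at 15.4 CPM. With second-series libraries only (3 controls against 4), the log2 fold change was 1.11 (SE 0.66) in letter A and 2.41 (SE 0.31) in letter C, with edgeR adjusted p-values of 0.394 and 0.115. With letters A and C of the second series summed, the log2 fold change was 2.03 (SE 0.25) and the adjusted p 0.0918, the lowest of that fit. Whether the treatment difference itself varied between letters was tested on the log2 ratio of letter C to letter A within the animals whose A and C libraries were both in the second series. That ratio averaged 2.77 in the 4 animals at 50 mg/kg and 1.06 in the 3 controls, with overlapping animals. An exact two-sided permutation test gave p = 0.171, where 0.0571 is the smallest this design allows. This test was chosen after the values were seen, and it was run for all 4 named genes; the other 3 gave exact permutation p-values from 0.114 to 0.914.

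ENSMFAG00000032295, with an exonic width of 2458 bases, was the more abundant of the 2 higher genes. It stood at 102, 128, 125 and 120 CPM in control animals 1501 to 1504 and at 164, 167, 177 and 147 CPM in animals 4501 to 4504. The groups did not overlap, and animal 4504 was nearest to the controls. The means were 164 CPM ± 12.7 against 119 CPM ± 11.9 (SD, n = 4 animals each), a log2 fold change of 0.46 (SE 0.10) with an edgeR adjusted p of 0.857.

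For ENSMFAG00000032295 all 3 letters gave a positive difference. The log2 fold change was 0.32 (SE 0.13) in letter A, 0.42 (SE 0.18) in letter B and 0.65 (SE 0.15) in letter C. Single libraries overlapped: 7 of the 12 libraries at 50 mg/kg lay above the highest control library, letter A of animal 1502 at 152 CPM. Among the letter B libraries, all of the first series, the range was 113 to 201 CPM at 50 mg/kg and 88.8 to 136 CPM with anti-gD.

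**Figure D2:**
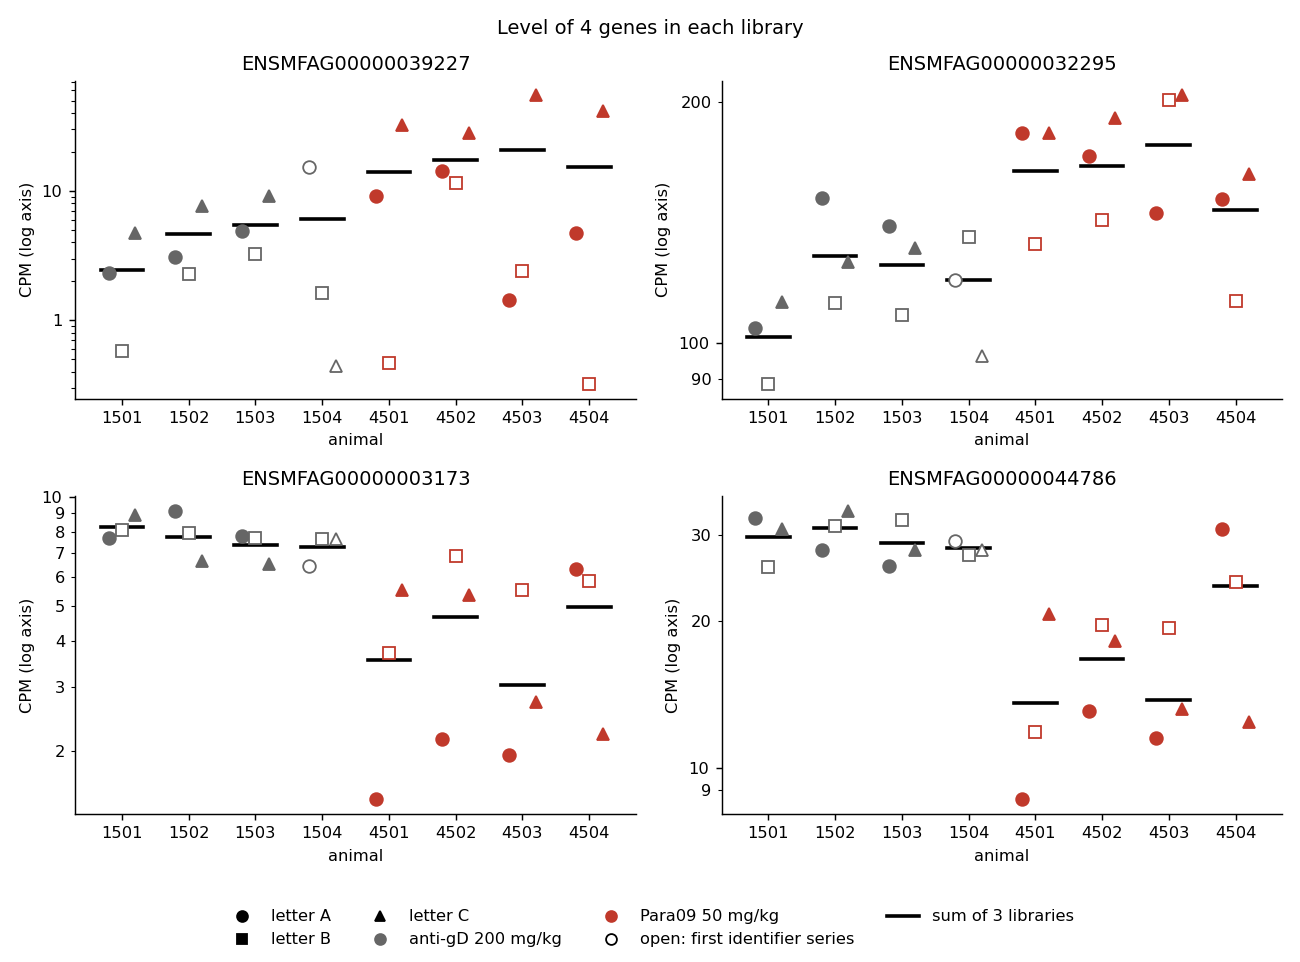
CPM (vertical, logarithmic axis) of the 4 named genes in each library of the 8 animals (horizontal axis), with the letter given by the marker shape, open markers for the first series and a black line for the 3 libraries of an animal summed. The letter C libraries at 50 mg/kg stand above the rest for ENSMFAG00000039227, and libraries 4504A and 4504B lie at or near control levels for the 2 lower genes.

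ENSMFAG00000003173, with an exonic width of 1941 bases, was the less abundant of the 2 lower genes. Animals 1501 to 1504 stood at 8.24, 7.73, 7.38 and 7.28 CPM, and animals 4501 to 4504 at 3.54, 4.66, 3.02 and 4.97 CPM. No animal at 50 mg/kg reached the lowest control. The means were 4.05 CPM ± 0.917 against 7.66 CPM ± 0.434 (SD, n = 4 animals each), and the log2 fold change was -0.92 (SE 0.18, edgeR adjusted p = 0.857).

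Control libraries of ENSMFAG00000003173 ranged from 6.46 to 9.16 CPM, and 11 of the 12 libraries at 50 mg/kg lay below that range. The exception was letter B of animal 4502 at 6.88 CPM. The lowest values were in letter A of animals 4501, 4502 and 4503, at 1.47, 2.16 and 1.95 CPM, and in letter C of animal 4504, at 2.23 CPM. The letter with the low value thus differed between animals. By letter the log2 fold change was -1.37 (SE 0.44) in A, -0.50 (SE 0.30) in B and -0.92 (SE 0.34) in C.

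ENSMFAG00000044786, with a longer exonic width of 7124 bases, stood at 29.6, 31.0, 28.8 and 28.2 CPM in animals 1501 to 1504 and at 13.6, 16.7, 13.8 and 23.6 CPM in animals 4501 to 4504. Animal 4504 was nearest to the controls, without overlap. The means were 16.9 CPM ± 4.67 against 29.4 CPM ± 1.21 (SD, n = 4 animals each), a log2 fold change of -0.80 (SE 0.17) with an edgeR adjusted p of 0.857.

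The 4 libraries that were lowest for ENSMFAG00000003173 were also low for ENSMFAG00000044786: letter A of animals 4501, 4502 and 4503 held 8.61, 13.1 and 11.5 CPM, and letter C of animal 4504 held 12.4 CPM. Letter B of animal 4501 was as low, at 11.8 CPM. Letter A of animal 4504 held 30.8 CPM, inside the control range of 25.7 to 33.6 CPM, and the other 11 libraries at 50 mg/kg lay below it. The log2 fold change was -0.86 (SE 0.38) in letter A, -0.62 (SE 0.21) in letter B and -0.91 (SE 0.22) in letter C.

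For each of the 4 genes the exact two-sided permutation p on log2 CPM was 0.0286, the smallest that 4 animals against 4 can give. The genes were picked for a small p on these same animals, so this value adds no support. At the higher Para09 dose of 200 mg/kg, whose comparison shares the control animals, ENSMFAG00000039227 ranged over 4 animals from 3.08 to 9.28 CPM. It overlapped the controls there (2.46 to 6.06 CPM). The other named genes ranged from 142 to 162 CPM (ENSMFAG00000032295), 4.49 to 6.32 CPM (ENSMFAG00000003173) and 16.9 to 22.5 CPM (ENSMFAG00000044786). They did not overlap the controls, which were also used to pick them.

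Fits on single series and letters gave different numbers of genes at the unadjusted threshold. Within the first series (letter B, 1 library per animal) edgeR called 0 genes and 191 of 15508 (1.23%) had an unadjusted p under 0.05. Within the second series (letters A and C, 3 controls against 4) it called 0 and 1840 of 17104 (10.8%) had one, 910 higher and 930 lower. Letter A alone gave 662 of 16097 (4.11%) and letter C alone 1358 of 16049 (8.46%). Without the first-series libraries 1504A and 1504C, and 5501A and 5501C at 200 mg/kg, these were 2878 (17.7%) and 1201 (7.42%). In that letter A fit edgeR called 5 genes (0.0308%), 4 higher and 1 lower, with a lowest adjusted p of 0.0296, and the 4 named genes were not among them. In that letter C fit it called 0. A library-level limma voom model with series and letter as terms and the animal as a random block called 0 of 15928 genes. Its lowest adjusted p was 0.0758, and 1061 genes had an unadjusted p under 0.05. Letter, series, number of libraries and number of animals change together between the fits on single series, so their parts in the counts cannot be told apart. The counts were not tested against each other.

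**Figure D3:**
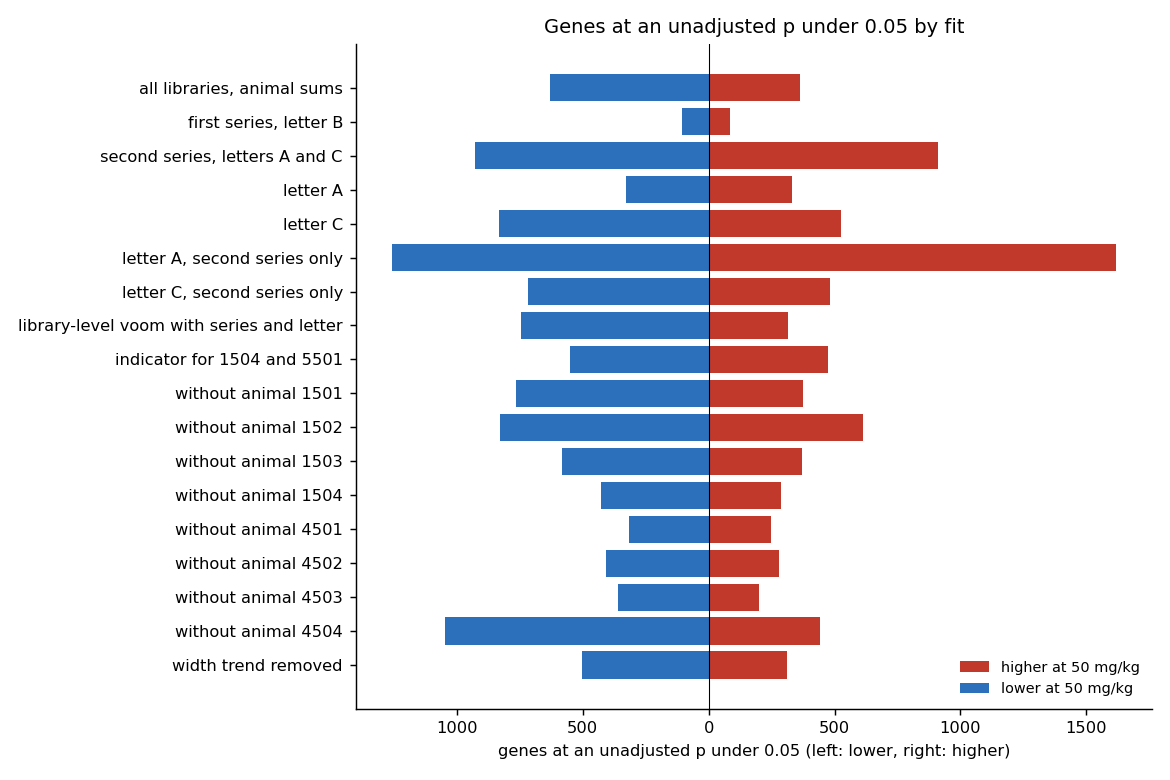
Number of genes at an unadjusted p under 0.05 (horizontal axis, blue bars to the left for lower and red bars to the right for higher at 50 mg/kg) in each fit (vertical axis). The count is smallest within the first series (191) and largest in letter A of the second series (2878), the one fit shown in which any gene (5) passes the adjusted threshold.

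DESeq2, a second count test run on the same animal sums, called 9 of 19312 genes (0.0466%), 3 higher and 6 lower. The 4 named genes were among the 9, but they were picked for a small p on these same sums. Their DESeq2 adjusted p-values, which add no independent support, were 0.000868 for ENSMFAG00000039227, 0.005 for ENSMFAG00000003173, 0.042 for ENSMFAG00000044786 and 0.0445 for ENSMFAG00000032295. In 8 of the 9 the animals did not overlap, against 694 of all 17360 genes in the edgeR fit. The 9 were called on these same sums, so this separation adds no support either. The DESeq2 list changed when 1 animal was left out, which also lowers the number of animals compared, and why it changed was not tested. Without animal 4504 it grew to 202 genes (1.3%), 25 higher and 177 lower, which held 8 of the 9. Leaving out any other animal gave 2 to 12 calls that held 1 to 4 of the 9. Within letter B DESeq2 called 0 genes, and within the second series 112 (0.693%), 54 higher and 58 lower, which held 7 of the 9.

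The direction of the differences went with exonic width, the summed length of a gene's exons given in the files. The median width was 1650 bases for genes higher at an unadjusted p under 0.05, 4465 bases for those lower, and 2600 bases over all genes tested. The median log2 fold change was 0.07 for the 1442 genes of 500 to 1000 bases and 0.07 for the 3789 genes of 1000 to 2000 bases. It was 0.01 for 5699 genes of 2000 to 4000 bases, -0.06 for 4361 genes of 4000 to 8000 bases and -0.16 for the 738 genes above 8000 bases. Genes up to 500 bases, 1331 in number, had a median of 0.01. The median over all genes tested was 0.00. The width classes were set after the data were seen, so no test is given.

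Among the 738 genes above 8000 bases, 589 (79.8%) had a negative fold change, against 49.7% of all genes tested. An unadjusted p under 0.05 with lower levels was found for 123 of them (16.7%) and with higher levels for 2 (0.271%). This was not limited to 1 level of expression: in that width class the median log2 fold change was -0.14 for 299 genes above 100 CPM, -0.19 for 321 genes of 10 to 100 CPM and -0.18 for 90 genes of 1 to 10 CPM.

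**Figure D4:**
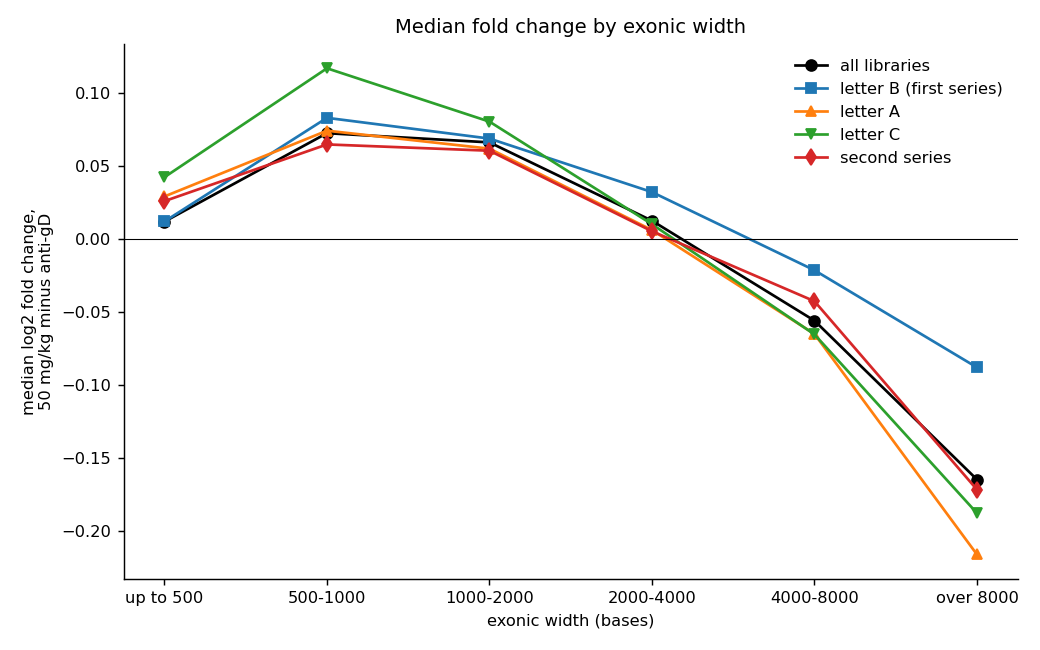
Median log2 fold change (vertical axis, 50 mg/kg minus anti-gD) of all genes tested in 6 classes of exonic width in bases (horizontal axis), for all libraries and for fits on single letters or series. In all 5 lines the class above 8000 bases is the lowest, from -0.09 in letter B to -0.22 in letter A.

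The fits by letter and series gave the same sign for these wide genes. Their median log2 fold change was -0.09 in the first series (letter B), -0.17 in the second series, -0.22 in letter A and -0.19 in letter C. Over 27 alternative fits it ran from -0.22 to -0.09, leaving aside the one that removes the width trend. A fit with that trend removed from each animal gave 818 of 17360 genes at an unadjusted p under 0.05. The fit without that step gave 996 of 17360, and a share of 0.05 is expected with no difference. In the fit with the trend removed, the 4 named genes had log2 fold changes of 1.78 (ENSMFAG00000039227), 0.43 (ENSMFAG00000032295), -0.97 (ENSMFAG00000003173) and -0.71 (ENSMFAG00000044786). The part of the width trend in the single-gene differences was not tested beyond that fit.

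The wide genes separated the animals as follows. For each animal the median deviation from the mean of the 8 animals was taken over 710 genes above 8000 bases with at least 1 CPM. It was 0.11, 0.09, 0.06 and 0.17 on the log2 scale in control animals 1501 to 1504 and -0.13, -0.07, -0.14 and 0.04 in animals 4501 to 4504. The groups did not overlap, but animal 4504 lay closer to control animal 1503 than to the other 3 animals of its group.

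Single libraries overlapped. The deviations from the mean of the 24 libraries ran from -0.39 to 0.22 at 50 mg/kg, where 9 of 12 were below 0, and from -0.04 to 0.21 with anti-gD, where 2 of 12 were. In letter B, which held all 8 animals within 1 series, controls lay between 0.08 and 0.15, while animals 4501, 4502 and 4503 lay at -0.07, -0.06 and -0.08 and animal 4504 at 0.22. The lowest library was letter A of animal 4501, at -0.39. Without that library the median log2 fold change of the 738 wide genes tested was -0.13. Of all 17354 genes tested in that fit, wide or not, 710 had an unadjusted p under 0.05. Only 70 of these were wide genes. Libraries 4504A and 4504B, which stood near the controls for the 2 lower genes, stood at 0.09 and 0.22 here. RNA quality values for these libraries were not used here, and their part in the width trend was not tested.

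**Figure D5:**
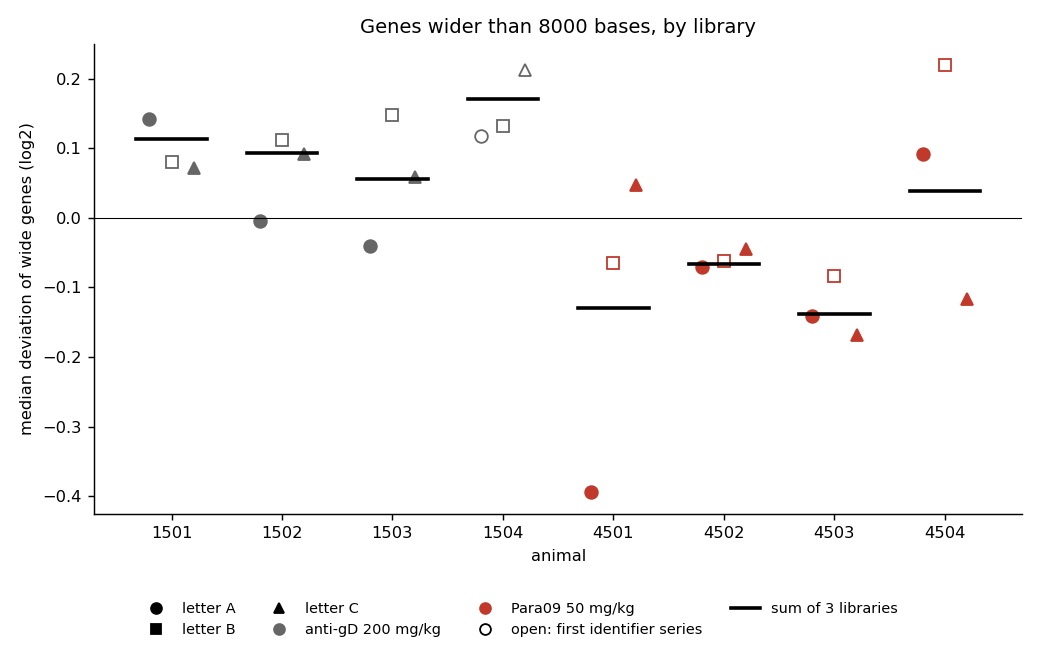
Median deviation (vertical axis, log2 scale) of 710 genes wider than 8000 bases in each library and animal (horizontal axis), from the mean of the 24 libraries for markers and from the mean of the 8 animals for black lines. Marker shape gives the letter and open markers the first series; the animal values lie at or above 0.06 with anti-gD and at or below 0.04 at 50 mg/kg.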

How the data were processed

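Bulk RNA of frontal cortex was sequenced, and the deposited table of each library gives exonic width, raw count and RPKM for 28623 genes, per the file headers. The submitters' processing notes name GSNAP as the aligner. Build, annotation, strand setting and treatment of multiply matching reads were stated in none of the sources used here. Overlapping genes and genes with close copies may therefore have exchanged counts. The RPKM values deposited by the authors divide by a total larger than the sum of the counts, of which the counts made up a mean of 57.1% in the first series and 59.4% in the second; they were used only for that check.

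The animal was the replicate: its 3 libraries were added up, and the quasi-likelihood test of edgeR 4.0.16 (R 4.3.3) was run with TMM factors and filterByExpr on all 12 animals together, with a Benjamini-Hochberg threshold of 0.05. CPM values use TMM-scaled totals of animals or of libraries, and log2 CPM a prior count of 2. Standard errors come from the fold change and F statistic. Whether animals share a litter or day is not stated. Alternatives were RLE size factors, DESeq2 1.42.0, other filters, the 8 animals alone, single letters and series, an indicator for the 2 animals held in 1 series, limma 3.58.1 (voom with a within-animal correlation of 0.273; trend on library means) and each animal left out. Fits without libraries 4501A, 4504A, 4504B or 5501B, on letter B of the 8 animals, on letters A and C within the second series, with the width trend removed (lowess, span 0.3) and DESeq2 with animals left out or within a series were added after the data were seen. Functions were tested on simulated data.

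The comparison, gene rule and lists were chosen with earlier results of these data known. Genes were named by that rule: the 2 higher and 2 lower with the smallest p, an average of 1 CPM or more and the same direction within both series. The reference table (40596 genes) matched 0 identifiers, so the 17 gene lists could not be applied and no list has a result.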

Additional observations from a re-analysis of the deposited data

Results flagged for a closer look

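Among 14 groups of 4 animals in which 1 animal could stand far from the other 3 (total counts, the 4 named genes, the wide genes and the spread over genes in each group), 1 did so, where chance gives about 1 in 20. Animal 4504 at 50 mg/kg held 80.3 M counts, and the next of its group held 65.3 M. Its letter A library, with 37.0 M counts, was the deepest of the 24. Without that library edgeR called 0 genes, and the genes without overlap of the animals were 272 higher and 470 lower, against 375 and 319 with it.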

How the results depend on the processing

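A call of 0 genes was found in 26 of the 28 alternative fits, while DESeq2 called 9 and edgeR on letter A of the second series 5. The 996 genes at an unadjusted p under 0.05 became 191 in letter B (211 with the 8 animals alone), 662 in letter A (2878 with second-series libraries only) and 1840 in the second series, and ran from 561 to 1490 with 1 animal left out. The genes without overlap of the animals, 694 of 17360, became 191 of 15508 in letter B (179 of 15271 with the 8 animals alone). They were 367 of 16097 in letter A and 1193 of 17358 without library 4504B. With second-series libraries only, 3 controls against 4, the count was 1620 of 17104. It was 2439 of 16247 in letter A and 1235 of 16181 in letter C there. With 1 animal left out it ran from 922 to 2015, with 17498 to 17516 genes tested. With no difference, such separation is expected for a share of 0.0286 of genes with 4 against 4 and 0.0571 with 3 against 4. Fewer animals thus raise the count by design, and the cause of the other shifts was not tested. The median log2 fold change of genes above 8000 bases was 0.0037 once the width trend was removed, which that fit does by construction. The 4 named genes kept their sign in the 28 alternatives. The naming rule fixed that sign in the letter B and second-series fits, and every alternative reuses libraries of the same animals. The log2 fold changes were 0.16 to 2.81 (ENSMFAG00000039227), 0.32 to 0.65 (ENSMFAG00000032295), -1.41 to -0.50 (ENSMFAG00000003173) and -1.004 to -0.62 (ENSMFAG00000044786). Among the 28 alternatives, the 4 named genes passed the adjusted threshold in DESeq2 only. The DESeq2 fits with animals left out or within a series are not counted among the 28. For most genes at or below 1 CPM the 95% interval, not adjusted for the number of genes, reached beyond 2-fold. Such intervals do not give the smallest difference that the adjusted test could detect at any level.

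No paired analysis was possible because the groups share no animal numbers.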
